A study of Mus musculus with 12 samples.

Results

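Arginase 1, the product of Arg1, cleaves arginine to ornithine and urea, and macrophages that hold it take arginine away from the nitric oxide synthase encoded by Nos2 and from neighbouring T cells. In mouse macrophages Arg1 is a textbook target of interleukin-4 signalling through STAT6, and it is also induced under low oxygen and by lactate. Slc7a2 encodes a transporter that brings arginine into activated macrophages, and Spp1 encodes osteopontin, a secreted matrix protein made by many tumour macrophages. The cells described here are the Arg1-expressing myeloid cells of mouse tumours. They were chosen by raw UMI counts (unique transcript molecules) in single cells: at least 2 for Arg1, at least 1 for Lyz2 (lysozyme, a myeloid enzyme), at least 1 for Tyrobp (a myeloid signalling adaptor) and 0 for Cd3e and Cd3g, which encode CD3 subunits of the T cell receptor complex. The rule found 375 cells, which were 0.744% of the 50416 tumour cells kept and 4.81% of the 7804 tumour cells that met the Lyz2, Tyrobp and Cd3 conditions at any Arg1 count (95% exact binomial interval 4.34 to 5.30%). They were compared with 7629 Arg1=0 cells that had a Lyz2 and a Tyrobp UMI, of which 475 also had a Cd3e or Cd3g UMI, since that class was defined without a condition on the Cd3 genes.

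The tumours were grown from 5 cell lines of a mouse melanoma study, called SCC31, SCC32, SCC35, SCC37 and SCC40, and were taken at days 6, 10, 16 and 20. The authors' hashtag table calls SCC31 and SCC40 rejected and SCC32, SCC35 and SCC37 non-rejected, and lists each tumour of a line under a mouse and cage of its own. No treatment is given for any group, and the labels and tables used here name no strain, age or sex for the mice. Each line had a library of its own, and a sixth library, the mix library, pooled tumour 3 of SCC31 (days 6 and 10), SCC35 (days 6, 10 and 20) and SCC40 (days 6 and 10), so that line and library can be told apart only within that library. Of 43 hashed tumours, 37 had at least 20 myeloid cells. The SCC31 library held 335 kept tumour cells with a median of 1169 UMIs, and the other libraries held 8366 to 14104 with medians of 3448 to 5597. The SCC31 results therefore rest on the 2 tumours of the mix library. Of the 375 cells, 20 carried a barcode sequence that was also kept in another library. At day 0 the rule found 0 of 7227 cells.

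The Arg1 count of the chosen cells had a median of 4 UMIs (interquartile range 2 to 7.5, highest 63). Just inside the cut-off lay 114 cells with exactly 2 Arg1 UMIs, and just outside it 275 myeloid cells with 1. A further 106 cells had 3 to 4, 85 had 5 to 9 and 70 had 10 or more, so that 18.7% of the cells were far above the cut-off. Median depth was 2598 UMIs in the chosen cells and 2581 in the Arg1=0 cells, and the median mitochondrial share was 1.83% and 2.17%. Among 35427 tumour cells without a Lyz2 or Tyrobp UMI, 0.169% had at least 2 Arg1 UMIs (median depth 4904 UMIs), and among 3711 cells with a Cd3e or Cd3g UMI and no Lyz2 UMI 0.323% did (median depth 2110). That background was not even between tumours. In the day 6 SCC31 tumour of the mix library 5.63% of 231 cells without Lyz2 and Tyrobp had at least 2 Arg1 UMIs, and in its day 10 counterpart 2.63% of 456 did.

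The macrophage label was checked on markers that the rule did not use. Fcgr1, the high-affinity IgG receptor, had a UMI in 62.1% of the Arg1-expressing cells, 49.0% of the Arg1=0 cells and 2.16% of the Cd3-positive Lyz2-negative cells. Csf1r, the receptor for the macrophage growth factor CSF1, was found in 55.2%, 55.3% and 1.70% of the same cells. C1qa, a complement chain made by differentiated macrophages, was found in 50.1%, 47.3% and 3.69%, and Adgre1 (F4/80) in 28.8% and 24.7% of the Arg1-expressing and Arg1=0 cells. Macrophage markers were thus present in the cells, and Ly6c2 transcripts beside them. After each cell was thinned to 1000 UMIs (356 Arg1-expressing and 6856 Arg1=0 cells were deep enough, over all tumours), 23.3% of the Arg1-expressing cells had a UMI of C1qa without Ly6c2, the marker of inflammatory monocytes, 31.7% had Ly6c2 without C1qa, 14.6% had both and 30.3% had neither. The same shares in Arg1=0 cells were 32.001%, 33.0%, 8.78% and 26.2%. Unthinned, Ly6c2 was found in 60.8% of Arg1-expressing, 54.4% of Arg1=0 and 46.3% of the Cd3-positive Lyz2-negative cells. Spp1 was found in 57.1%, 50.9% and 46.0% of the same cells. Cells of another type thus often held both, and neither gene served as a label here. The split by C1qa and Ly6c2 is therefore a description and no count of monocytes. Nos2 was found in 14.7%, 3.75% and 0.566% of Arg1-expressing, Arg1=0 and Cd3-positive cells.

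The highest shares of Arg1-expressing cells were found in an SCC31 tumour of day 10 and an SCC35 tumour of day 6. In SCC37 the shares lay between 1.95 and 7.58% over all days, and SCC40 had no such cell after day 6. Shares below are percentages of myeloid cells per tumour, and in a tumour fewer such cells cannot be told apart from less Arg1 RNA per cell. In the SCC31 tumours of the mix library the share was 15.98% at day 6 (78 of 488 cells) and 30.8% at day 10 (32 of 104). The SCC31 library itself gave too few myeloid cells for a share, with 4 Arg1-expressing cells among 9 myeloid cells in 1 day 6 tumour, 0 of 4 in the other and 0 of 7 in a day 10 tumour.

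In SCC32 the 2 day 6 tumours had 6.14% and 11.3%, the day 10 tumours 5.59% and 2.34%, the day 16 tumours 0 and 0.345%, and the day 20 tumours 2.15% and 0. The mean went from 8.71% ± 3.64 (SD, n = 2) at day 6 to 1.08% ± 1.52 (n = 2) at day 20, and the groups did not overlap. In SCC35 the 3 day 6 tumours had 8.33%, 5.80% and 21.6%, the last from the mix library. The day 10 tumours of SCC35 had 1.97%, 0.331% and 2.06%, the day 16 tumours 0.506% and 0.926%, and the day 20 tumours 0.571%, 0 and 2.67%. All day 6 tumours of this line lay above all its later tumours. In SCC37 the shares were 6.79% and 2.41% at day 6, 5.56% and 7.58% at day 10, 7.35% and 1.95% at day 16, and 6.25% and 4.22% at day 20, with the days overlapping throughout. In SCC40 the 3 day 6 tumours had 1.52%, 0 and 1.49%, and all 5 later tumours had 0, which at 67 to 131 myeloid cells allows shares of up to 2.29 to 4.48%.

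**Figure D1:**
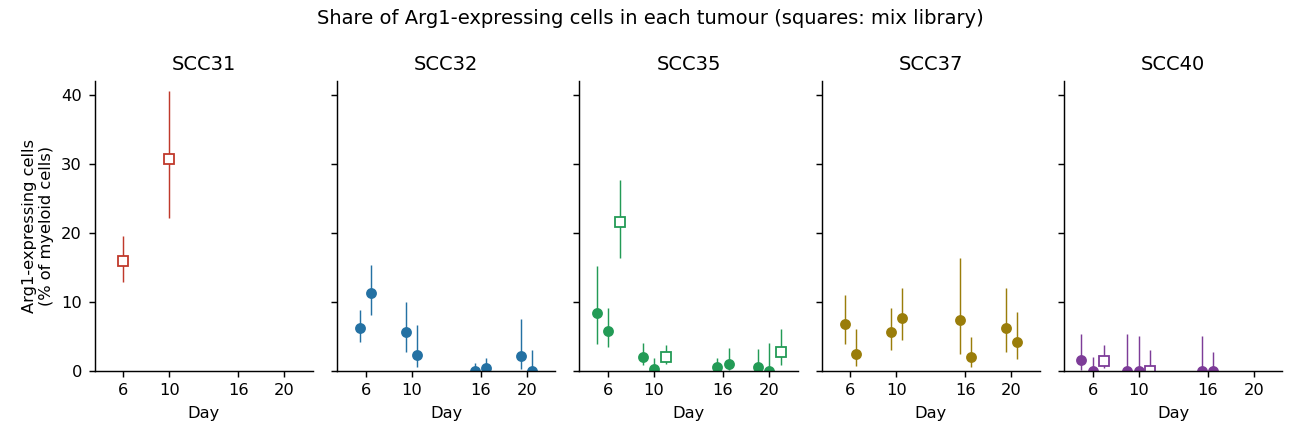
Share of Arg1-expressing cells among myeloid cells (vertical axis, percent) against day, 1 panel per line and 1 point per tumour with at least 20 myeloid cells; squares are tumours of the mix library. SCC31 reached 30.8% at day 10, while all SCC40 tumours after day 6 sat at 0.

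The tests over tumours differed between questions. Between lines at day 10, the line means ran from 0 in SCC40 to 30.8% in SCC31, and an exact permutation test on the sum of squares between lines gave p = 0.00102 (adjusted over 6 share tests 0.00615). That call rested on 1 SCC31 tumour: without the mix library the range was 6.57 percentage points, between SCC37 and SCC40, with an adjusted exact p of 0.0556. Between lines at day 6 the range of the means was 14.98 points, and the exact p was 0.161 (adjusted 0.484). Within the mix library alone the order of the lines at day 6 was SCC35 21.6%, SCC31 15.98% and SCC40 1.49%, and at day 10 SCC31 30.8%, SCC35 2.06% and SCC40 0, with 1 tumour each and no test. The change from first to last day, averaged over lines, was -0.81 points (exact permutation within lines, adjusted p = 0.991), and its parts went in opposite directions: SCC31 was 14.8 points higher, SCC32 7.64 and SCC35 10.8 points lower, SCC37 0.635 points higher and SCC40 1.0 point lower. Without either SCC31 tumour the averaged change was -4.71 points, with an adjusted exact p of 0.0231. From day 6 to day 10 the averaged change was 0.108 points (adjusted exact p = 0.991), and -3.56 points without either SCC31 tumour (adjusted exact p = 0.0696). The Arg1 level of all myeloid cells, which needs no cut-off on Arg1, changed from first to last day by -4.99 CPM (summed UMIs of a gene scaled to the same total in every sum; adjusted exact p = 0.991), and by -104 CPM without the day 6 SCC31 tumour (adjusted exact p = 0.0129) or without the day 10 one (adjusted exact p = 0.0231).

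The outcome of the lines did not separate the shares. Averaged over days 6 and 10, the rejected lines stood at 23.4% (SCC31) and 0.500% (SCC40), on either side of the non-rejected lines SCC32, SCC35 and SCC37 at 6.34%, 6.69% and 5.58%. The means were 11.9% ± 16.2 (SD, n = 2) and 6.20% ± 0.563 (n = 3), and the exact permutation p was 0.7, where 5 lines cannot give less than 0.2.

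Gene expression of the Arg1-expressing cells was set against that of the Arg1=0 myeloid cells of the same tumour, in summed counts of the 5 tumours with at least 20 cells of both classes: SCC31 at day 6 and day 10 and SCC35 at day 6, all 3 from the mix library, and 2 SCC32 tumours at day 6. Of 5431 genes tested, 118 (2.17%) passed edgeR's quasi-likelihood test with Benjamini-Hochberg adjustment at 0.05, 63 of them higher in the Arg1-expressing cells (1.16%) and 55 lower (1.01%). The higher genes included the arginine transporter Slc7a2, Nos2, the eosinophil chemokine Ccl24, the elastase Mmp12, the mannose receptor Mrc1, the monocyte chemokines Ccl7 and Ccl8, the complement C1q chains and Vegfa. The lower genes included Ccr7 and Fscn1 of dendritic cells, Gzmb, Nkg7 and Cd3d of T and NK cells, and 23 of 88 ribosomal protein genes. Cells with a Cd3e or Cd3g UMI were left out of the Arg1-expressing class alone, so lower T cell genes follow in part from the rule. With that condition on both classes 12 genes were lower, Gzmb and Nkg7 did not pass, and Cd3d had no value. Depth per cell moved with the class: median UMIs were higher in the Arg1-expressing cells in 4 of these 5 tumours (for example 4012 against 2621 in SCC32 day 6 tumour 1) and lower in SCC31 at day 10 (2277 against 2786), and the part of depth in the results was tested only by thinning. In the thinned sums only 2 tumours kept 20 cells of both classes, and 2 of 1070 genes were called, both of them also called without thinning. DESeq2 called 64 of the 5431 genes, and without the mix library 18 were called, of which 17 were among the 118.

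In the order SCC31 day 6, SCC31 day 10, SCC32 day 6 tumours 1 and 2, and SCC35 day 6, used for all values that follow, Arg1 itself, which the rule chose, stood at 2350, 3366, 1053, 995 and 2296 CPM in the Arg1-expressing cells. Arg1 lies on chromosome 10 at 24915221-24927484, minus strand (mm10, GENCODE vM21). Slc7a2 (chromosome 8, 40862396-40922308, plus strand) stood at 92.0, 289, 157, 113 and 47.7 CPM in the Arg1-expressing cells and at 15.01, 47.3, 18.4, 20.3 and 11.6 CPM in the Arg1=0 cells. The transporter was higher in every tumour without overlap between the classes, with a log2 fold change of 2.64 (SE 0.24, edgeR adjusted p = 3.43e-07). Nos2 (chromosome 11, 78920787-78960254, plus strand), which encodes the inducible nitric oxide synthase that uses the same substrate, stood at 155, 88.9, 209, 45.2 and 15.9 CPM against 53.5, 8.86, 53.4, 42.9 and 18.3 CPM. Nos2 was higher in 4 of 5 tumours (log2 fold change 1.43, SE 0.30, edgeR adjusted p = 0.0098), and it was called in 21 of 29 alternatives. The call was lost without SCC31 day 6 (adjusted p = 0.0694), without SCC32 day 6 tumour 1 (0.136) and without the mix library (0.258), with log2 fold changes of 1.41, 1.16 and 1.42. Thinned to equal depth, the mean share of cells with a Nos2 UMI in the 5 tumours was 7.40% ± 6.41 (SD, n = 5) of the Arg1-expressing and 3.78% ± 2.16 of the Arg1=0 cells, and that of Slc7a2 was 8.87% ± 3.33 and 2.98% ± 2.27. Pooled over all tumours, the shares were 7.30% and 1.82% for Nos2 and 8.15% and 1.42% for Slc7a2.

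The other genes of arginine and polyamine metabolism did not pass the test. Of 17 genes in that list 12 were tested, Slc7a2 and Nos2 were higher, none was lower, and the median log2 fold change was 0.13 against 0.008 over all genes tested. Arg2, the mitochondrial arginase, stood at 13.2, 0, 0, 15.1 and 26.5 CPM against 24.4, 14.8, 13.3, 11.3 and 14.9 CPM, with overlapping classes. Odc1, which takes ornithine into polyamine synthesis, stood at 224, 367, 179, 173 and 387 CPM against 199, 360, 209, 148 and 231 CPM, also overlapping. Both were named after their values were seen.

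Ccl24 (chromosome 5, 135569937-135573049, minus strand) encodes eotaxin-2, a chemokine for eosinophils induced by interleukin-4. It stood at 884, 822, 508, 837 and 238.6 CPM in the Arg1-expressing cells and at 144, 91.6, 53.4, 157 and 44.8 CPM in the Arg1=0 cells. The means were 658 ± 278 and 98.03 ± 51.0 CPM (SD, n = 5), and the classes did not overlap. The log2 fold change was 2.75 (SE 0.16, edgeR adjusted p = 2.146e-10), the smallest p of the comparison, and the gene was called in all 31 alternatives. Mmp12 (chromosome 9, 7344381-7369499, plus strand), the macrophage elastase that cleaves elastin, stood at 122, 389, 418, 37.7 and 74.2 CPM against 4.69, 38.4, 20.6, 5.64 and 18.3 CPM (log2 fold change 3.69, SE 0.30, edgeR adjusted p = 7.422e-08). It was higher in every tumour, with the lowest Arg1-expressing value just under the highest Arg1=0 value, and it was called in all 30 alternatives in which it was tested. Mrc1 (chromosome 2, 14229392-14332057, plus strand), the mannose receptor CD206, stood at 138, 244, 217, 158 and 382 CPM against 23.5, 65.0, 43.9, 50.8 and 115 CPM (log2 fold change 2.0, SE 0.19, edgeR adjusted p = 4.191e-07). The 2 classes did not overlap for Mrc1.

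Several secreted factors were higher with them. Ccl8, a ligand of CCR8 in mice, stood at 378, 667, 642, 573 and 1007 CPM against 58.2, 269, 260, 163 and 128 CPM (log2 fold change 2.01), with no overlap. Pf4, the chemokine CXCL4, was higher in every tumour at very different levels, 46.0, 299.9, 59.7, 22.6 and 1007 CPM against 21.6, 17.7, 12.2, 14.7 and 189 CPM (log2 fold change 2.23, edgeR adjusted p = 3.738e-05). Ccl7, a monocyte attractant through CCR2, stood at 375, 389, 508, 558 and 673 CPM against 180, 97.5, 231, 315 and 201 CPM (log2 fold change 1.28). The remaining large rises among genes of at least 50 CPM were Ecrg4 (log2 fold change 2.99), the interleukin-7 receptor Il7r (1.51), the collagen gene Col3a1 (1.41) and the adhesion receptor Cd84 (1.39), each higher in 5 of 5 tumours. Ecrg4 had 1.28 (edgeR adjusted p = 0.26) with at least 10 cells per tumour and without the mix library. Its total in the Arg1-expressing cells was 184 counts in these 5 tumours and also in the 11 tumours with at least 10 cells. The tumours added at 10 cells thus held no Ecrg4 count in these cells. Over the 11 tumours the Ecrg4 median was 0 CPM, against 13.5 CPM in the Arg1=0 cells. Il7r was called in 25 and Cd84 in 26 of 29 alternatives, and without the mix library their adjusted p were 0.32 and 0.057. Col3a1 changed sign: it was -0.64 without the cells of highest Scrublet score and -0.30 with at least 10 cells per tumour and without the mix library. The 8 fibroblast markers summed to 244 to 1123 CPM in the Arg1-expressing cells and 23.6 to 730 CPM in the Arg1=0 cells of the same tumours, none of them at 0 in either class, and their part in the Col3a1 value was not tested.

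Spp1, named as a marker of these cells, stood at 2836, 567, 2726, 3459 and 2376 CPM in the Arg1-expressing cells and at 2216, 1001, 2627, 3628 and 3199 CPM in the Arg1=0 cells. The classes overlapped, Spp1 was higher in 2 and lower in 3 of the 5 tumours, and the log2 fold change was -0.14 (edgeR adjusted p = 0.73). Across the alternatives its log2 fold change ran from -1.22 to 0.76, and it was called in 2 of 31.

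**Figure D2:**
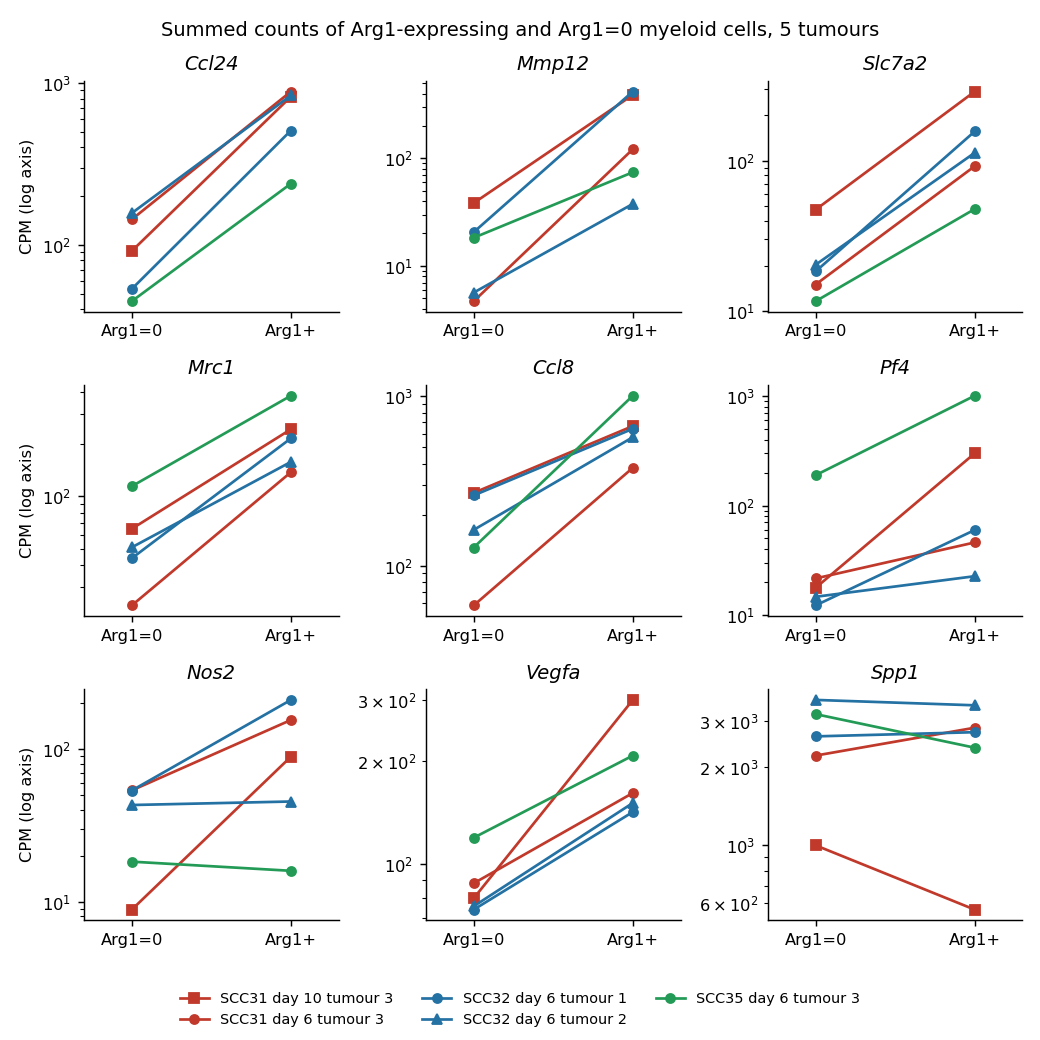
Level in the summed counts (CPM, log axis) of the Arg1=0 and the Arg1-expressing myeloid cells of 5 tumours, 1 panel per gene, with a line joining the 2 classes of a tumour. Ccl24, Mmp12, Slc7a2 and Mrc1 rise in all 5 tumours, while the lines of Spp1 go both ways.

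Promoter sequence was searched for motifs of factors tied to Arg1 or to these genes, in the 250 bases before the first listed start (RefSeq, GRCm38.p6). Entries of a single chromosome and entries of unequal length were left out beforehand, and each gene kept a single entry. Of the 63 higher genes 48 had an entry left. The motif TTGCNNAA of the C/EBP factors, read on both strands, was in the promoters of 9 of the 48 (18.8%), against 9.55% of the 27025 promoters searched and 7.37% of those of tested genes. The 9 were Adam8, Ctsl, Dab2, Fcgr3, Il7r, Lair1, Mmp12, Pf4 and Ptgs2. The STAT6 motif (TTC and GAA with 4 bases between them) was in 3 (6.25%, against 5.86% of the promoters searched and 4.52% of those of tested genes). The AP-1 motif TGANTCA was in 5 (10.4%, against 6.87% and 4.59%), and the hypoxia response motif ACGTG was in 5 (10.4%, against 16.6% and 23.5%). These matches are letters in a window and no measurement of binding. The promoters of 3 genes with a C/EBP match are shown as examples from the secreted and inflammatory genes described here, with the match in capitals; it starts 39 bases before the start site in Mmp12, 212 in Pf4 and 69 in Ptgs2, and in Mmp12 it lies on the opposite strand.
Mmp12 (chr9:7344147-7344396, plus strand): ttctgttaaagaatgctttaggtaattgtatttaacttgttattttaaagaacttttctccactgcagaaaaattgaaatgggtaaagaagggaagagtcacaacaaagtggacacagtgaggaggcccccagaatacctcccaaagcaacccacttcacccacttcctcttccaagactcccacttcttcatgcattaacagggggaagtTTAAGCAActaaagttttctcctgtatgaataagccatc
Pf4 (chr5:90772185-90772434, plus strand): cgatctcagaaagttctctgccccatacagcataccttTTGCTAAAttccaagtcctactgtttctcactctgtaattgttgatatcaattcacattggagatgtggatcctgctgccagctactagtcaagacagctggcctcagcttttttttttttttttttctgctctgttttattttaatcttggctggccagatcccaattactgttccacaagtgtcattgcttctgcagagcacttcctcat
Ptgs2 (chr1:150099781-150100030, plus strand): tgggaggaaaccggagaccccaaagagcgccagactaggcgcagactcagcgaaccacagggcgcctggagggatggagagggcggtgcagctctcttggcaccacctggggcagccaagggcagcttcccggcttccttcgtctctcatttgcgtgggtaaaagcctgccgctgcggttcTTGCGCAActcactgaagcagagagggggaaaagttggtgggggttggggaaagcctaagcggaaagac

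Described by list, the higher genes came from several programmes. Of 16 genes of interleukin-4 and alternative activation 12 were tested and 4 were higher, namely Ccl24, Mrc1, the transglutaminase Tgm2 and Pdcd1lg2, with a list median of 0.50. Pdcd1lg2, the PD-1 ligand PD-L2, stood at 164, 66.7, 142, 226 and 74.2 CPM against 79.7, 35.5, 60.1, 51.9 and 38.2 CPM (log2 fold change 1.3, edgeR adjusted p = 0.0011), higher in every tumour. Retnla, another gene of that programme, had a UMI in 0.533% of the Arg1-expressing and 0.105% of the Arg1=0 cells, over all tumours. Chil3 had a UMI in 24% against 17.1%, and after thinning in 11.2% against 10.5%. Of 20 inflammatory cytokines and chemokines 19 were tested and 7 were higher, with a median of 0.57: Ccl7, Ccl6 (1.10), the prostaglandin synthase Ptgs2 (0.78) and, outside the naming rule, Il1b, Cxcl2, Ccl9 and Ccl12. Genes of both the alternative and the inflammatory list were therefore higher in the same summed cells.

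Of 22 hypoxia response genes 18 were tested and 2 were higher, with 15 positive log2 fold changes and a median of 0.33. Vegfa, the endothelial growth factor, stood at 161, 299.9, 142, 151 and 207 CPM against 88.2, 79.8, 73.9, 75.6 and 120 CPM (log2 fold change 1.03, edgeR adjusted p = 0.0025), with no overlap, and Hilpda, which holds back lipid breakdown, had 0.83. Without the mix library neither passed (Vegfa 0.96, edgeR adjusted p = 0.28, and Hilpda 0.48, 0.72). In cells with a Csf1r, Adgre1 or C1qa UMI they had 0.73 (0.13) and 0.67 (0.074). Vegfa was called in 22 and Hilpda in 18 of 31 alternatives. None of the 16 glycolysis genes passed, with 14 positive values and a median of 0.19, and the most abundant, Gapdh and Pkm, had 0.06 and 0.30. In the lipid and lysosome list 4 of 17 tested genes were higher, among them the fatty acid carrier Fabp5 (0.91), the protease Ctsl (0.70) and Mmp12. In the matrix and vessel list 4 of 15 were higher, among them Tgfbi (0.96), an extracellular matrix protein induced by TGF-beta, and coagulation factor F10 (0.75). Of 31 alternatives Fabp5 was called in 21, Ctsl in 15, Tgfbi in 29 and F10 in 15.

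No gene of antigen presentation passed the test: of 16 tested none was called, the median was 0.20, and Cd74 and B2m had 0.28 and 0.23. In the interferon response list Nos2 alone of 17 was called and 5 of 17 had a positive log2 fold change, with a median of -0.11. None of 12 iron and redox genes (Fth1 0.19, Ftl1 0.16), 8 stress genes (Fos 0.27, Dusp1 0.19) or 7 cell cycle genes (Pcna -0.06, Ube2c 0.60) passed in these 5 tumours. Iron and redox genes and a cell cycle gene were called in the larger set described below. The proliferation marker Mki67 had a UMI in 5.07% of the Arg1-expressing and 14.0% of the Arg1=0 cells (0.843% and 5.62% after thinning), given as a description since the tumours were pooled.

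**Figure D3:**
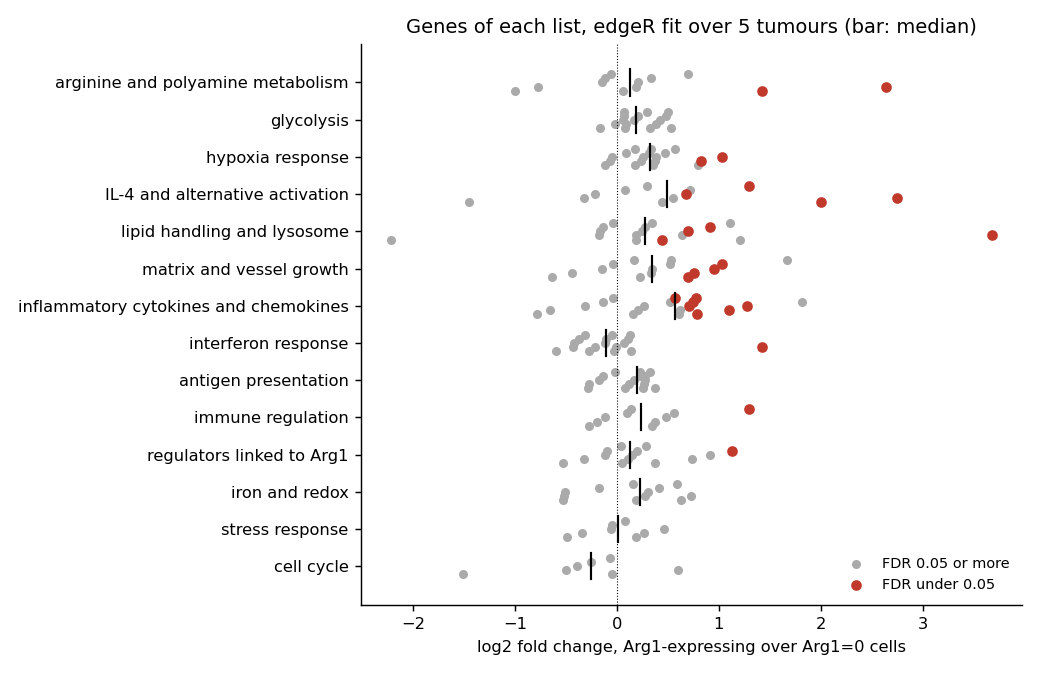
Log2 fold change of Arg1-expressing over Arg1=0 cells (horizontal axis) for each tested gene of each list (rows), with called genes in red, genes that did not pass in grey and the list median as a bar. The inflammatory and alternative activation lists hold 7 and 4 called genes to the right of 0, and glycolysis and antigen presentation hold none.

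Markers of macrophages and of other cell types were summed in both classes. The 10 macrophage markers summed to 3362 to 5384 CPM in the Arg1-expressing and 1347 to 3544 CPM in the Arg1=0 cells of the 5 tumours, and 4 of 9 tested were higher, among them C1qa, C1qb and C1qc, with all 9 values positive. C1qa stood at 233, 389, 702, 806 and 483 CPM against 94.7, 148, 471, 441 and 350 CPM (log2 fold change 0.85, edgeR adjusted p = 0.0017), and C1qb had 0.83. Without the mix library they had 0.72 (edgeR adjusted p = 0.079) and 0.45 (0.32). In cells with a Csf1r, Adgre1 or C1qa UMI they had 0.31 (0.43) and 0.46 (0.32). Thinned and pooled over all tumours, C1qa was found in 37.9% of Arg1-expressing and 40.8% of Arg1=0 cells. The mean thinned shares in the 5 tumours were 29.2% and 17.1%. The monocyte markers summed to 5187 to 8817 and 4336 to 9851 CPM, and none of 11 tested passed, with Ly6a at 0.08 and Plac8 at -0.35. Ly6c2 itself stood at 1058, 511, 1576, 1507 and 748 CPM against 1853, 567, 2318, 1638 and 677 CPM, with overlapping classes. Dendritic markers summed to 26.5 to 271 CPM against 153 to 352 CPM, with Flt3, Clec9a and Siglech at 0 in the Arg1-expressing cells. Ccr7 (log2 fold change -2.77), the homing receptor of migrating dendritic cells, and Fscn1 (-1.25), their actin bundler, were lower. Neutrophil markers summed to 69.0 to 144 CPM (median 127) against 111 to 481 CPM (median 128), and of 5 tested S100a9 alone was called. S100a8, named after its values were seen, ran from 0 to 33.3 against 2.26 to 184 CPM, with overlap. Over all tumours S100a8 had a UMI in 2.13% of the Arg1-expressing and 1.05% of the Arg1=0 cells. S100a9 had 0 of 849465 UMIs in the Arg1-expressing cells against 183 counts in the Arg1=0 cells, at least 11.04-fold lower when 3 counts over the group are taken as the limit. SCC35 at day 6 held 117 of the 183 counts, and without that tumour the same limit was at least 3.56-fold. DESeq2 did not call S100a9 (adjusted p = 0.998).

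Melanocytic markers summed to 22.6 to 66.7 CPM against 19.9 to 36.7 CPM, with 7 of 9 at 0 in the Arg1-expressing cells. T and NK markers summed to 5.30 to 232 against 26.6 to 815 CPM, and Gzmb (-1.91), Cd3d (-2.36) and Nkg7 (-1.3) were lower. The condition on Cd3 genes applied to the Arg1-expressing class alone. With it applied to both classes Gzmb had -1.04 (edgeR adjusted p = 0.40), Nkg7 -0.31 (0.90) and Ms4a4b -0.26 (0.90, from -1.25), and Cd3d had no value. In that fit Ccr7 had -2.76 (0.0030) and Fscn1 -1.32 (0.029). Without the mix library neither passed (Ccr7 -1.15, edgeR adjusted p = 0.59, and Fscn1 -0.78, 0.66), and Fscn1 was called in 13 of 29 alternatives. With that condition 56 genes were called, 44 higher and 12 lower, and 55 of them were among the 118. The other large falls were Pclaf (-3.24), a replication factor, Cryab (-1.68), a small heat shock protein, Serpinb6b (-1.65), Lsp1 (-1.18) and Tspan13 (-1.13), and without the mix library none of these 5 passed. Of 88 ribosomal protein genes 23 were lower, none was higher and the median was -0.28.

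With at least 10 cells in both classes 11 tumours of 4 lines entered, and 246 of 6724 genes (3.66%) were called, 91 higher (1.35%) and 155 lower (2.31%). Of the first 118 genes 97 were called again, and all 118 kept their sign. The larger set added lipid genes: 9 of 18 were higher, among them Apoe, the lipid receptor Trem2, the fatty acid carrier Fabp4 and the scavenger receptor Cd36, and 1 was lower. Glycolysis gained Gpi1, Pgk1 and Slc16a3, and 4 of 11 monocyte markers were lower, among them Ly6c2, Plac8 and Hp. These genes were named after their values were seen. Without the mix library 104 genes were called in this set, with Ccl24 at 2.51, Mmp12 at 3.18, Slc7a2 at 2.31, Mrc1 at 1.95 and Nos2 at 1.55 (edgeR adjusted p at most 0.0012 for these 5).

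Among the Arg1-expressing cells themselves the amount of Arg1 differed from cell to cell, and some of the genes above went with it. In the myeloid cells of the 5 tumours, summed by Arg1 count, 1265 cells had no Arg1 UMI, 102 had 1, 54 had 2, 59 had 3 to 4, 50 had 5 to 9 and 59 had 10 or more. Ccl24 stood at 107, 292, 547, 296, 297 and 1397 CPM in these classes (Poisson 95% interval of the last 1253 to 1552), so that the cells with a single Arg1 UMI, which neither class of the comparison holds, lay between them. Mmp12 stood at 15.7, 43.6, 69.1, 86.9, 181 and 320 CPM, higher in each class than in the one before. Slc7a2 stood at 21.7, 46.7, 104, 26.1, 75.5 and 243 CPM, without such an order. Ly6c2 went the other way, at 1814, 1661, 1434, 1269, 790 and 899 CPM. Spp1 showed no order, at 2517, 3344, 2033, 2964, 3446 and 1887 CPM. These classes pool tumours with different levels and are a description, and median depth was 2128 UMIs in the cells without Arg1 and 2942 in those with 10 or more.

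**Figure D4:**
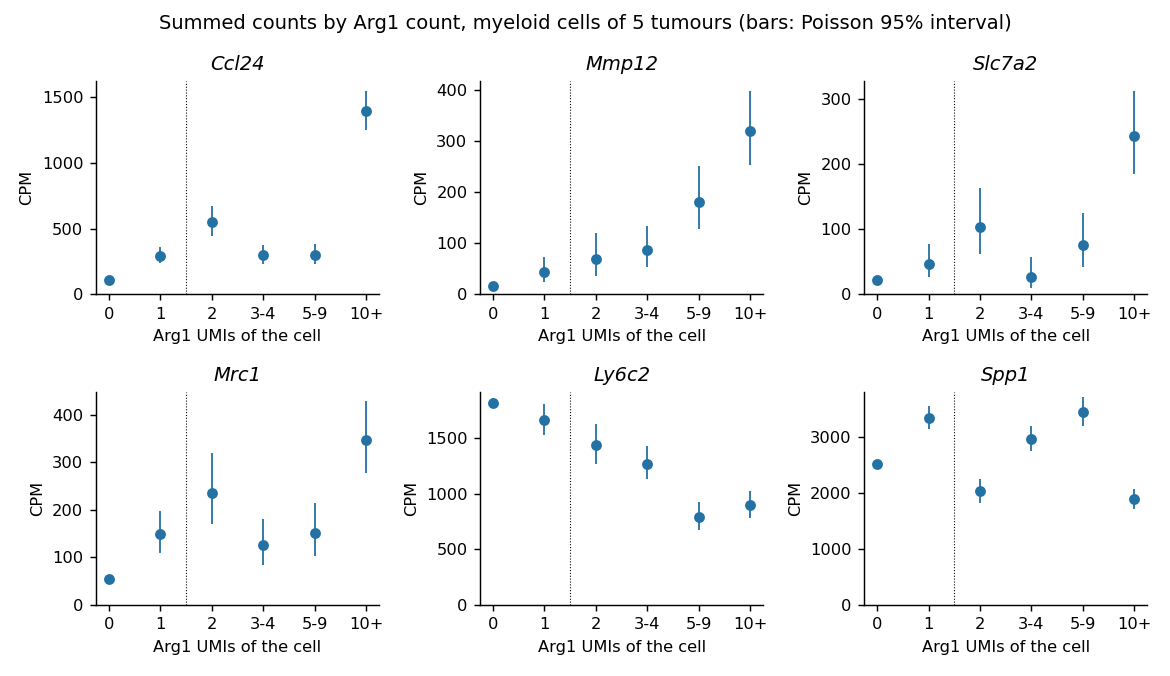
Level of each gene in summed counts (CPM, from 0) of the myeloid cells of 5 tumours by the Arg1 UMI count of the cell, with Poisson 95% intervals; cells right of the dotted line were chosen by the rule. Ccl24 and Mmp12 are highest in cells with 10 or more Arg1 UMIs (1397 and 320 CPM), and Ly6c2 is highest in cells without any.

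At equal depth the same question was put to a test over tumours. Arg1-expressing cells were thinned to 1000 UMIs and split at the median thinned Arg1 count of their tumour, which left 4 tumours with 14 to 33 cells in the upper and 17 to 40 in the lower group. Of 421 genes tested, 14 (3.33%) passed edgeR's quasi-likelihood test with Benjamini-Hochberg adjustment, 6 higher (1.43%) and 8 lower (1.90%) in the upper group, and DESeq2 called 0. Among the higher were Ccl24 (log2 fold change 1.87), AA467197 (1.49), Ccl7 (1.38), Tgm2 (1.10) and Cd74 (0.44), each in 4 of 4 tumours. Lower were Spp1 (-1.25, in 3 of 4 tumours), the motility protein gene S100a4 (-0.90), 4 mitochondrial genes, Rplp1 and Gm26917. These calls were fragile: without any 1 of the 4 tumours 0 to 6 genes were called, and without the cells of highest Scrublet score 0 were called and Spp1 had 0.95. Of the 12 monocyte markers 7 were tested in this split and none was called. All 7 had positive log2 fold changes (median 0.24), while Ly6c2 fell over the pooled classes above.

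The Arg1-expressing cells of day 10 tumours had higher Apoe, Trem2 and Pltp, genes of lipid handling, and lower Ly6c2 and Plac8, genes of monocytes, than those of day 6. With at least 20 cells per tumour only SCC31 had both days, 1 tumour each, and edgeR's quasi-likelihood test called 0 of 2986 genes (297 had an unadjusted p under 0.05, and DESeq2 called 4). With at least 10 cells there were 6 tumours of day 6 and 5 of day 10 from 4 lines. Of 1732 genes tested 23 (1.33%) were called, 12 higher at day 10 (0.693%) and 11 lower (0.635%), and 17 (0.982%) did not overlap between the days, whether called or not. In cells that also had a Csf1r, Adgre1 or C1qa UMI 9 tumours entered and 1 of 2398 genes passed, Apoe (log2 change 2.12, edgeR adjusted p = 0.042). In the fit of 1732 genes, 2 of 14 tested genes of the lipid and lysosome list, which does not hold Pltp, were higher and none was lower. Of these 14, 8 had a positive log2 change, with a median of 0.14 against -0.072 over all genes tested. Of 8 monocyte markers 2 were lower, none was higher and 0 had a positive value, with a median of -0.50.

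Apoe, the apolipoprotein that loads cholesterol out of macrophages, ran from 69.0 to 2759 CPM at day 6 (median 304) and from 1278 to 3740 CPM at day 10 (median 2539), with overlapping days. Its log2 change within lines was 2.67, and it was called in all 7 fits at 10 cells with 1 further choice changed. Trem2, a lipid-sensing receptor, ran from 15.1 to 224 (median 24.8) and from 73.7 to 321 CPM (median 195), with a log2 change of 2.16 that was called in 4 of 7 further fits. Pltp, a phospholipid transfer protein, did not overlap, at 26.3 to 127 against 189 to 292 CPM (2.01, called in 5 of 7). The complement regulator Cfp did not overlap either (1.62), and Pf4 (2.31) and the T cell chemokine Cxcl9 (1.70) were also higher.

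Ly6c2 fell from 748 to 2560 CPM at day 6 (median 1283) to 263 to 1007 CPM at day 10 (median 465), a log2 change of -1.55, called in 5 of 7 further fits. The monocyte gene Plac8 had -1.63 and was called in 5 of 7 (named after its value was seen). Ccl24 ran from 49.7 to 884 CPM (median 373) and from 0 to 822 CPM (median 24.6), a log2 change of -2.93 that was called in 4 of 7 further fits. In SCC31 alone, the line with at least 20 cells on both days, Ccl24 stood at 884 and 822 CPM and the log2 change was -0.02. The other falls were the interferon-induced genes Gbp4 (-4.24) and Gbp3 (-2.52), the interleukin-18 inhibitor Il18bp (-5.22), Csnk1a1 (-2.54) and Cnn3 (-2.05). Each of these genes overlapped between the days. The lowest day 10 values of Gbp4, Gbp3, Il18bp and Csnk1a1 were 0, and the day 10 median of Il18bp was 0, so their fitted values give no firm size. In further fits Gbp4 was called in 4 of 6, Gbp3 in 2 of 6, Il18bp in 4 of 7, Csnk1a1 in 5 of 7 and Cnn3 in 3 of 7. Without single lines the count of called genes ran from 8 (without SCC32) to 120 (without SCC37), and without the mix library it was 59.

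**Figure D5:**
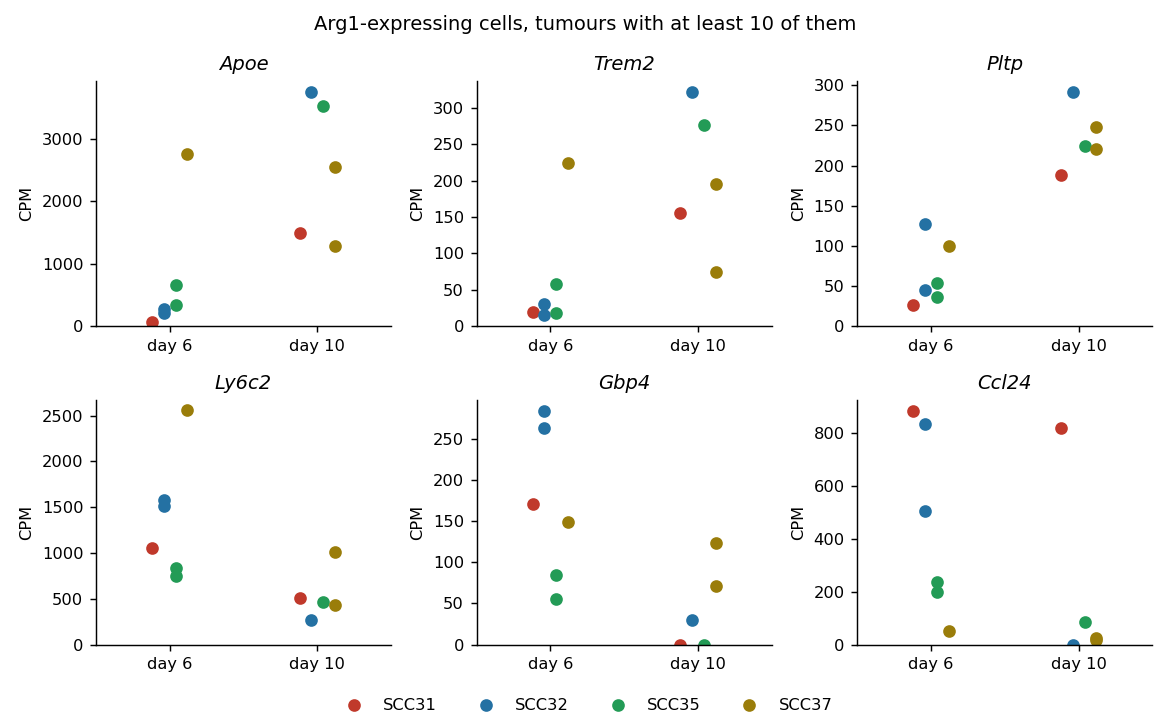
Level in the summed Arg1-expressing cells (CPM, from 0) of 6 day 6 and 5 day 10 tumours with at least 10 such cells, 1 panel per gene and 1 point per tumour, coloured by line. Pltp does not overlap between days, Apoe is higher and Ly6c2 lower at day 10, and Ccl24 stays at 822 CPM in the day 10 SCC31 tumour.

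The same genes in the Arg1=0 cells of the same tumours are given as a description. Pltp in Arg1=0 cells ran from 53.5 to 116 CPM at day 6 and from 138 to 244 CPM at day 10, without overlap, and Ly6c2 from 677 to 2852 and from 380 to 1514 CPM, with overlap. Gbp4 fell from 68.1 to 248 CPM to 26.6 to 60.6 CPM and Cnn3 from 118 to 236 CPM to 42.8 to 88.5 CPM, both without overlap. With overlap, the medians went from 18.0 to 69.9 CPM for Trem2, 21.2 to 109 for Pf4 and 1951 to 981 for Plac8. The Cxcl9 median went the other way than in the Arg1-expressing cells, from 865 to 655 CPM. A fit of both classes over the 11 tumours, with the tumour as block, asked whether the change over days differed between them, and edgeR's quasi-likelihood test with Benjamini-Hochberg adjustment called 3 of 6724 genes (0.0446%), with a higher change in the Arg1-expressing cells for 2 (0.0297%) and a lower one for 1 (0.0149%) (495 had an unadjusted p under 0.05). Apoe rose more in the Arg1-expressing cells (difference of log2 changes 1.67, SE 0.35, adjusted p = 0.0217), and in the Arg1=0 cells it ran from 201 to 611 CPM at day 6 and from 133 to 1558 CPM at day 10. Cxcl9 likewise had 1.45 (SE 0.30, adjusted p = 0.0217), with 360 to 1449 and 464 to 1313 CPM in the Arg1=0 cells. The gene with the lower change was H19, and all its day 10 Arg1-expressing sums were 0, so its fitted value gives no size. For Pltp the difference was 0.58 (adjusted p = 0.78), for Ly6c2 -0.37 (0.82) and for Ccl24 -0.11 (0.99). DESeq2 called 0 genes, and without the block 0 were called.

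The Arg1-expressing cells of different lines were compared in the same sums. With at least 20 cells per tumour edgeR's quasi-likelihood F test with Benjamini-Hochberg adjustment called 0 of 2986 genes (306 had an unadjusted p under 0.05, and DESeq2 called 1). With at least 10 cells it called 25 of 1322 (1.89%), of which the 6 of smallest p that the naming rule allows were Ifitm1, Irf7, Mndal, Ccl24, Parp14 and H2-Eb1. Ifitm1, an interferon-induced membrane protein, stood at 274 to 723 CPM in 3 SCC35 tumours, 138 and 267 CPM in SCC31, 22.4 to 58.4 CPM in SCC32 and 0 to 24.9 CPM in SCC37. The Arg1=0 cells had the same order at the top, with 393 to 642 CPM in SCC35. Irf7, the regulator of type I interferon genes, stood at 713 to 969 CPM in SCC37 and 614 to 881 CPM in SCC32, above SCC35 (258 to 475 CPM) and SCC31 (342 and 111 CPM), which overlapped.

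Ccl24 stood at 884 and 822 CPM in SCC31, at 508, 837 and 0 CPM in SCC32, at 86.1 to 238.6 CPM in SCC35 and at 17.8 to 49.7 CPM in SCC37. SCC32 thus spanned nearly the whole range, with its 0 at day 10, and the Arg1=0 cells of SCC37 had 9.44 to 37.1 CPM. H2-Eb1, an MHC class II chain, stood at 1032 to 1474 CPM in SCC37, below every tumour of the other lines. It stood at 1807 to 1994 CPM in SCC35, at 1969 and 3954 CPM in SCC31 and at 2987 to 7070 CPM in SCC32, and these lines overlapped in part. Line and library cannot be told apart outside the mix library. Without SCC31 2 genes were called and without SCC37 62.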

How the data were processed

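Tumour suspensions hashed with TotalSeq-C antibodies and sorted for live cells were profiled with 10x Chromium 5′ V(D)J v1.1 chemistry, per the labels' protocols. The deposited matrices hold raw UMI counts for 32285 genes and 10 hashtags, made with Cell Ranger 6.0.0 on mm10, per the submitters' processing notes. The authors' hashtag table gave line, outcome, day and tumour. Cells with at least 300 genes, at most 15% mitochondrial counts, and a leading listed hashtag with 10 or more counts, no fewer than 2 times those of the runner-up, were kept. No doublet caller was applied in the reported values, and an alternative left out the 8% of cells with the highest Scrublet score (scanpy 1.11.5). Raw counts were summed per tumour and cell class and tested with edgeR 4.0.16 (quasi-likelihood, TMM, Benjamini-Hochberg adjustment over every gene tested, threshold 0.05, filterByExpr; R 4.3.3), with the tumour as block where both classes entered. Both classes of a block were cut from the same tumour, so the tumour itself gives the pairing: in the 5 tumours of the class comparison the correlation of the deviations of the paired sums was 0.192 to 0.389. Tumours needed at least 20 cells of a class. The comparison of day effects between classes had no residual degrees of freedom at 20 cells and was fitted with at least 10. CPM are the summed counts of a gene scaled to the same total in every sum. Shares were tested with exact permutation tests (scipy 1.17.1), adjusted over 6 tests. The fits were tested on simulated data with known changes. Of 100 genes changed 1.5-fold, 15 were recovered between classes at 20 cells. At 10 cells 3 were recovered between days, 0 for the day change by class, 0 between lines and 27 by Arg1 count. Of 100 genes changed 3-fold these fits recovered 73, 49, 23, 33 and 82, in the same order. False calls numbered 4, 0, 1, 1 and 8. Changes of 1.5-fold were thus mostly missed, and a gene that was not called may still differ.

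The members and gene lists were chosen with earlier results of these data known. The genes named are Arg1, Lyz2, Spp1 and Nos2; up to 3 called members of each list, or its 2 most abundant if none was called; the 10 largest rises and falls between classes among called genes with at least 50 CPM and 1 direction in at least 90% of tumours; and the 6 largest in each direction elsewhere (6 smallest p between lines). A few of these genes are not reported here. A gene that falls outside this rule is said to have been chosen after its values were seen. Alternatives were another hashtag ratio, thinning to 1000 UMIs per cell, other cell gates and Arg1 cut-offs, leaving out the mix library, a line or a tumour, other minimum cell numbers, RLE scaling, no low-count filter and DESeq2 1.42.0. Intervals on shares and counts cover counting error only.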

Additional observations from a re-analysis of the deposited data

Results flagged for a closer look

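In 6 of 53 named genes checked, 1 of the 5 tumours lay far from the others in the log2 ratio of CPM + 1 between Arg1-expressing and Arg1=0 cells, where chance alone gives about 1 in 20. Vegfa had 1.90 in SCC31 day 10 tumour 3, against 0.79 to 0.99 in the other tumours. Pdcd1lg2 had 2.10 in SCC32 day 6 tumour 2, against 0.89 to 1.23. Cd84 had 1.17 in SCC31 day 6 tumour 3, against 1.42 to 1.51. Gzmb had -6.55 in SCC32 day 6 tumour 2, where the Arg1-expressing cells held no Gzmb UMI, against -2.02 to -1.30. Ftl1 had 0.61 and Malat1 -0.49 in SCC31 day 10 tumour 3, against -0.01 to 0.12 and 0.18 to 0.24. Malat1, a nuclear RNA, was lower in the same tumour in which the median depth of the Arg1-expressing cells was below that of the Arg1=0 cells.

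For 3 genes the change over days differed between the classes by the test of the difference itself, in log2 units: 1.67 for Apoe, 1.45 for Cxcl9 and -9.53 for H19. The fitted H19 value depends on day 10 sums of 0 and gives no size.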

How the results depend on the processing

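The shares depended on the 2 SCC31 tumours of the mix library. The change from first to last day (-0.81 points) was 0.761 after thinning, 1.63 with a stricter myeloid gate (at least 2 Lyz2, 2 Tyrobp and 1 Fcer1g UMIs) and 0.289 from 5 Arg1 UMIs, and -1.39 as a share of all cells and -4.30 as a share of Ptprc-positive cells, the last 2 with adjusted exact p of 0.00667 and 0.00576. Without single tumours it ran from -4.71 to 0.159. The change from day 6 to day 10 (0.108 points) was -0.927 from 1 Arg1 UMI, -2.36 without the mix library and -3.57 as a share of Ptprc-positive cells (adjusted exact p = 0.0156), and -3.56 to 1.08 without single tumours. The range between lines at day 6 was 10.9 to 15.2 points without single tumours, and it was called without SCC35 day 6 tumour 3 (14.98 points, adjusted exact p = 0.0393). At day 10 it was 25 points after thinning (0.0613), 18.3 from 5 Arg1 UMIs (0.187) and 6.57 without the mix library (0.0556), and 6.57 to 30.8 without single tumours. The change in Arg1 CPM (-4.99) was 19.1 after thinning, 46.0 with the stricter gate and 11.6 in cells with a Csf1r, Adgre1 or C1qa UMI, and -104 to 25.002 without single tumours. The difference between outcomes (5.74 points) was -4.96 without the mix library and -5.70 to 17.2 without single lines.

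The 118 genes between classes became 50 with a hashtag ratio of 4, 2 after thinning, 63 without the deepest cells, 17 with the stricter gate, 44 in cells with a macrophage UMI, 186 from 1 and 55 from 5 Arg1 UMIs, 18 without the mix library, 56 with Cd3-negative Arg1=0 cells, 246 at 10 cells, 284 (71 higher, 213 lower) without a low-count filter and 64 with DESeq2. They were 67, 24 and 52 without SCC31, SCC32 and SCC35, 52 to 105 without single tumours, and 119 with no replicate block. At 10 cells, chosen after seeing the data, 252 were called without high Scrublet scores, 54 in cells with a macrophage UMI and 18 after thinning. The 0 genes between days became 39 without high Scrublet scores, 85 with the stricter gate, 55 in cells with a macrophage UMI, 95 from 1 Arg1 UMI, 23 at 10 cells and 4 with DESeq2. At 10 cells they were 59 without the mix library, 77 without high Scrublet scores, 1 in cells with a macrophage UMI, and 23, 8, 89 and 120 without SCC31, SCC32, SCC35 and SCC37. The 3 genes with class-specific changes became 1 without high Scrublet scores, 12 with the stricter gate, 15 without the mix library, 8 with Cd3-negative Arg1=0 cells, 16 without a low-count filter, 0 with DESeq2, 0 with no replicate block, 0 to 16 without single tumours, and 0, 8 and 14 without SCC32, SCC35 and SCC37. The 0 genes between lines became 126 without high Scrublet scores, 207 with the stricter gate, 212 in cells with a macrophage UMI, 234 without SCC31, 25 at 10 cells and 1 with DESeq2. At 10 cells they were 25 without the mix library, 15 without high Scrublet scores, 20 in cells with a macrophage UMI, and 2, 5, 8 and 62 without SCC31, SCC32, SCC35 and SCC37. The 14 genes by Arg1 count became 0 without high Scrublet scores, 4 with the stricter gate, 0 in cells with a macrophage UMI, 0 with DESeq2, 0 to 6 without single tumours, and 4, 6 and 0 without SCC31, SCC32 and SCC35. The cause of these moves was not tested. Every minimum of 20 cells leaves few tumours for days and lines, and thinned or mix-free fits, and some leave-outs, had too few tumours there to give a value.

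Over the 53 genes that the naming rule picks between classes, 1561 values were computed: 1210 kept direction and call, 266 kept direction and lost the call, 29 gained it and 56 changed sign, and 39 genes never changed sign. The log2 fold changes that changed sign follow. Spp1 had 0.76 thinned to 1000 UMIs, 0.17 with the stricter myeloid gate, 0.32 in cells with a macrophage UMI, 0.32 thinned at 10 cells. Col3a1 had -0.64 without high Scrublet scores, -0.30 at 10 cells without the mix library, -1.52 at 10 cells without high Scrublet scores, -0.19 at 10 cells without SCC31. Gapdh had -0.0056 in cells with a macrophage UMI, -0.064 without a low-count filter, -0.042 (without SCC31 day 6 tumour 3) to 0.12 without single tumours. Cd74 had -0.0060 at 10 cells without SCC32. B2m had -0.014 at 10 cells without the mix library, -0.010 at 10 cells without SCC31. Ftl1 had -0.070 from 5 Arg1 UMIs. Fos had -0.22 thinned to 1000 UMIs, -0.0078 without the mix library, -0.0022 at 10 cells without the mix library. Dusp1 had -0.85 thinned to 1000 UMIs, -0.51 from 5 Arg1 UMIs, -0.43 thinned at 10 cells. Pcna had 0.25 without high Scrublet scores, 0.096 in cells with a macrophage UMI, 0.23 without the mix library, 0.017 with Cd3-negative Arg1=0 cells, 0.045 without line SCC31, 0.057 at 10 cells without high Scrublet scores, 0.16 at 10 cells with a macrophage UMI. Ube2c had -1.97 without high Scrublet scores, -0.52 without the deepest cells, -0.14 from 1 Arg1 UMI, -0.046 without the mix library, -0.14 at 10 cells, -1.43 at 10 cells without the mix library, -2.17 at 10 cells without high Scrublet scores, -0.55 at 10 cells without SCC31, -0.13 at 10 cells without SCC32. Malat1 had -0.013 from 5 Arg1 UMIs, -0.063 at 10 cells, -0.054 without a low-count filter, -0.038 without line SCC32, -0.084 at 10 cells without the mix library, -0.026 at 10 cells without SCC31, -0.048 at 10 cells without SCC32, -0.036 at 10 cells without SCC35, -0.089 at 10 cells without SCC37. Neat1 had -0.063 at 10 cells, -0.24 at 10 cells without the mix library, -0.037 at 10 cells without high Scrublet scores, -0.068 at 10 cells without SCC31, -0.025 at 10 cells without SCC32, -0.10 at 10 cells without SCC35. Ly6a had -0.036 without a low-count filter, -0.011 at 10 cells without SCC32. Mitf had -0.54 without the mix library, -0.47 at 10 cells without the mix library. Between days Ccl24 in SCC31 had 0.018 with RLE scaling and with DESeq2, and by Arg1 count Spp1 had 0.95 without high Scrublet scores.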
